A study of Mus musculus with 4 samples.

Results

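The enzymes described here remove superoxide and peroxides: the superoxide dismutases Sod1, Sod2 and Sod3, catalase (Cat), the glutathione peroxidases Gpx1 and Gpx4, and the peroxiredoxins Prdx1, Prdx3, Prdx5 and Prdx6. They were chosen by name, through the gene symbols of the platform annotation. Of the 10 listed genes, 8 had spots annotated to them, 20 spots in all among the 45220 spots and 19088 named genes of the arrays. No spot was named as Prdx5 or Prdx6 in the annotation used, so these genes are not analysed here. Of the enzymes counted as mitochondrial, Sod2 and Prdx3 therefore remain, against 6 others.

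Transcripts of mtBALB cybrids, which carry mitochondria of BALB/cJ mice, were compared with those of mtB6 cybrids, which carry mitochondria of C57BL/6J mice. The labels call the mtBALB cells mutant and the mtB6 cells control. Cybrids are cells that join the mitochondria of a donor to the nucleus of a recipient line, here in fibroblast lines named LMEB3, so that the lines differ by design in the mitochondria they received. Both were grown to passage 3 in medium with high glucose (4.5 g/L) and 10% fetal bovine serum, and no treatment is named. Each of 4 two-colour Agilent arrays held 1 mtBALB and 1 mtB6 culture of the same replicate number, with mtBALB RNA in Cy5 on replicates 2 and 4 and mtB6 RNA in Cy5 on replicates 1 and 3. The labels call the replicates biological and name independent clones, without saying which clone is on which array, so that clone and mitochondria cannot be told apart within a pair. The values are deposited log ratios of the 2 lines, taken as log2, with no statement of which line is the numerator. A sign therefore names a side of the ratio and no line is called higher. Because a ratio holds no level, the fibroblast label could not be checked against its markers.

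Superoxide is formed when electrons leak from the respiratory chain. Superoxide dismutases turn it into hydrogen peroxide, SOD2 with manganese in the mitochondrial matrix, SOD1 with copper and zinc in the cytosol, and SOD3 outside the cell. Catalase breaks hydrogen peroxide down in peroxisomes, and GPX1 and GPX4 reduce peroxides with glutathione at a selenocysteine. The peroxiredoxins PRDX1 and PRDX3 do so with a reactive cysteine that thioredoxin restores. PRDX3 works in the mitochondrial matrix, PRDX1 mostly in the cytosol, and GPX4 protects membranes from lipid peroxides. A part of GPX1 and of GPX4 is also found in mitochondria.

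Promoters were taken from RefSeq tables of GRCm38.p6, in which 8 of the 10 genes matched and Sod3 and Prdx6 have no entry. Shown are the 250 bases before the gene start of Sod2 and Prdx3, the pair whose ratios ran closest together among the enzymes, and of Prdx1, whose spots disagreed. Sod2 is given for chr17:13007589-13007838 (plus strand), Prdx3 for chr19:60874539-60874788 (minus strand) and Prdx1 for chr4:116685349-116685598 (plus strand). Capitals mark matches on either strand to a GC box (GGGCGG) or to the core of the antioxidant response element (TGACNNNGC), the element that NRF2 binds.
Sod2: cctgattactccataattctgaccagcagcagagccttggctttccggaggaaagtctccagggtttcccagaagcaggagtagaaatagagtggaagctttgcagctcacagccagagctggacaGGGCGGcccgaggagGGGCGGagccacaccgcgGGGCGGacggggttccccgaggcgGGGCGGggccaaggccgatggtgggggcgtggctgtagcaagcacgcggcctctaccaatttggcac
Prdx3: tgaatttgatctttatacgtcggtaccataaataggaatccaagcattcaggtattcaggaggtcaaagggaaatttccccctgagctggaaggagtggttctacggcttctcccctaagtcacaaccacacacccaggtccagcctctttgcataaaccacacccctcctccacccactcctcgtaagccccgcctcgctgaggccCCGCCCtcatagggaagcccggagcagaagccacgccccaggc
Prdx1: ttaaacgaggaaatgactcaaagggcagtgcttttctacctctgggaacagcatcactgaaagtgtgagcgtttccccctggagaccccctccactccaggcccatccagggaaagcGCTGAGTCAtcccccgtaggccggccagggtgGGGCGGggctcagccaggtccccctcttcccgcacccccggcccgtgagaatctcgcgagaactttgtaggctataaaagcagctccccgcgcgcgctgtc

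The Sod2 window held 4 GC boxes, between 124 and 67 bases before the start, and the Prdx3 window held 1, at 43 bases. Of 32851 mouse promoter windows of this length, 32.7% held at least 1. The antioxidant core stood in the Prdx1 window at 133 bases as GCTGAGTCA, and among the other enzymes in that of Sod1 at 56 bases as GCGTGGTCA, against 10.2% of all windows. A FOXO motif (GTAAACA), found in 3.17% of all windows, matched in the window of none of the 8 genes. These matches describe letters in a window and not binding.

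None of the 8 enzymes separated the lines across the pairs. Their mean log2 ratios lay between -0.15 (Prdx1) and 0.23 (Gpx1), with 5 of 8 means above 0, against 49.5% of all genes, and a median of 0.01, against -0.00 over all genes. With the ratios taken as not turned to 1 direction, the means lay between -0.07 (Cat) and 0.14 (Sod1). In limma, 0 of 8 passed an adjusted p of 0.05, as did 0% of all 19088 genes, and the adjusted p was 0.9997 for each. At an unadjusted p under 0.05 the count was also 0 of 8, against 3.64% of all genes. The smallest unadjusted limma p was 0.139, for Sod3. None had the same sign on all 4 arrays, which 9.02% of all genes had. A p above the threshold does not show equal levels. For the ratios as turned and the means of spots, the largest fold within a 95% interval, in either direction, was between 1.20 (Sod1) and 1.58 (Gpx1). The Sod1 and Prdx1 intervals rest on means of spots that did not agree. With never dim spots alone, the SD of Sod1 over the arrays was 0.40, against 0.25 with all its spots. In cultures measured in bulk, fewer cells of a type and less RNA per cell cannot be told apart.

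**Figure D1:**
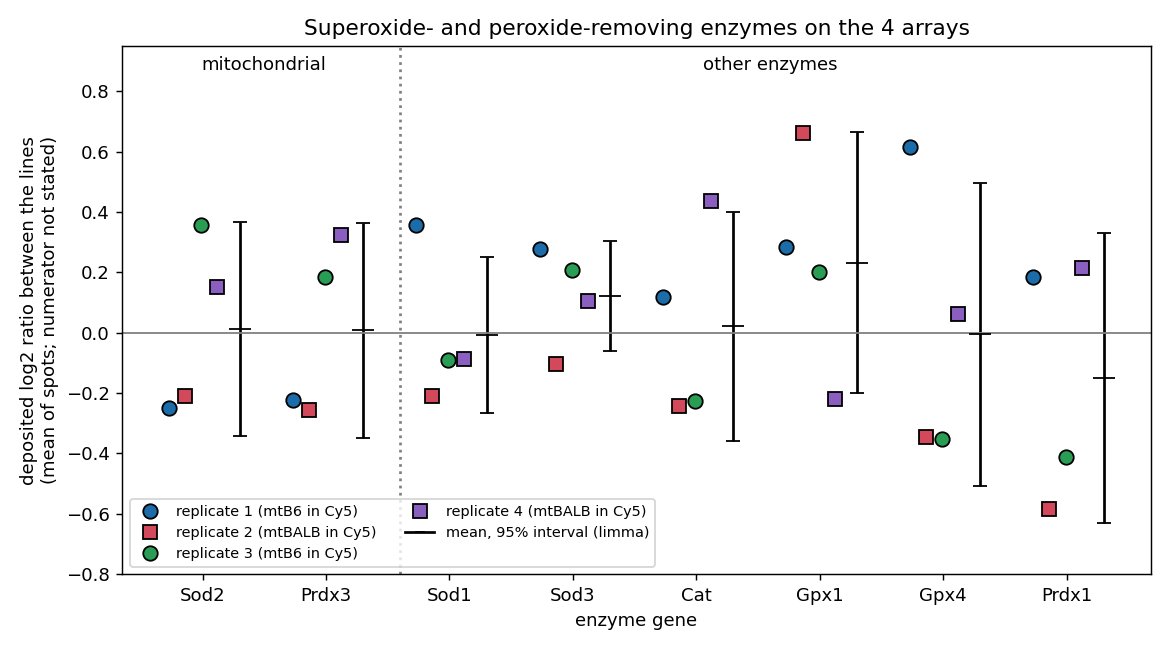
Deposited log2 ratio between the lines (vertical axis) of each enzyme gene (horizontal axis) on the 4 arrays. Squares are arrays with mtBALB RNA in Cy5 and circles those with mtB6 RNA in Cy5, and black bars give the mean with its 95% limma interval. Every enzyme has arrays on both sides of 0, and every interval includes 0.

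All of the 8 enzymes but Sod3 had a wider spread from pair to pair than the median gene. The SD over the 4 arrays had a median of 0.31 for the 8 enzymes, 0.18 for all genes and 0.24 for the 9774 genes with a spot that was never dim. A spot is called dim here on an array where at least 3 of its spots share exactly the same ratio, since intensities were not used here. Gpx4 had the widest SD, 0.46, above that of 92.2% of all genes and of 85.7% of the genes with a never dim spot. Sod1 stood above 51.2% of the latter. Sod3 had the narrowest SD, 0.17. With the ratios taken as not turned, Gpx1 had the widest, 0.45, and Sod3 again the narrowest. Sod3 was also the only enzyme of the 8 without a never dim spot, its single spot being dim on 1 array. For scale, the 12 spots of Prdx2, a cytosolic peroxiredoxin outside the 8, were never dim and had an SD between 0.16 and 0.19 within an array. They share an accession and may be more than 1 probe.

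Among the dismutases, Sod2 had log2 ratios of -0.25, -0.21, 0.36 and 0.15 on replicates 1 to 4, averaging 0.01 ± 0.29 (SD, n = 4). It was negative on replicates 1 and 2 and positive on replicates 3 and 4, and its single spot was never dim. The 95% interval of the Sod2 mean, -0.34 to 0.37, contains changes up to 1.29-fold. Sod1 had gene means of 0.36, -0.21, -0.09 and -0.09, a mean of -0.01 ± 0.25. Only replicate 1 was positive for Sod1. The extracellular Sod3 had 0.28, -0.10, 0.21 and 0.11, a mean of 0.12 ± 0.17, negative on replicate 2 alone.

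The 12 spots of Sod1 did not all give 1 picture. A single spot annotated to the transcript NM_011434 was never dim and had 0.85, -0.71, 0.33 and 0.10 on replicates 1 to 4, averaging 0.14. The other 11 spots, annotated to the cDNA BC057074, averaged 0.31, -0.16, -0.13 and -0.10, with an SD over spots between 0.13 and 0.27 within an array. All but 1 of those 11 were dim on 2 or more arrays. That 1 was never dim and had 0.14, -0.11, -0.71 and 0.19 on replicates 1 to 4, averaging -0.12. On replicate 1 each of the 12 Sod1 spots was positive, and on replicate 2 all but 1 were negative. On replicate 3 the NM_011434 spot lay at 0.33, above the highest of the 11, which reached 0.25. The never dim spot among the 11 was their lowest there, at -0.71, so the never dim Sod1 spots disagreed most on that array. The NM_011434 spot alone had an adjusted limma p of 0.9997 over all spots, and the mean of the other 11 was -0.02. The choice of spot thus changes the size and the sign of the Sod1 mean, and not the call.

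**Figure D2:**
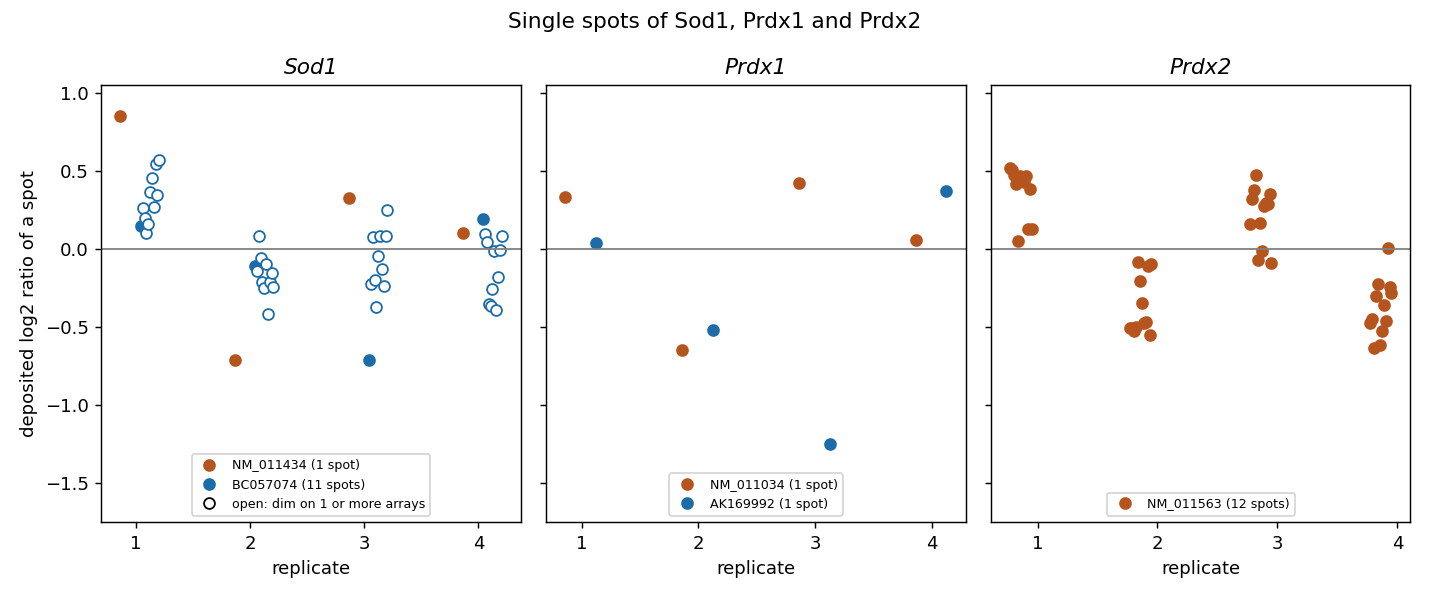
Deposited log2 ratio of each spot (vertical axis) of Sod1, Prdx1 and Prdx2 on replicates 1 to 4 (horizontal axis), with colours for the annotated accession and open symbols for spots dim on at least 1 array. The 2 Prdx1 spots part on replicate 3, at 0.42 and -1.25, and most Prdx2 spots lie above 0 on replicates 1 and 3 and below 0 on replicates 2 and 4.

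Catalase had log2 ratios of 0.12, -0.24, -0.23 and 0.44 on replicates 1 to 4, averaging 0.02 ± 0.32. Replicates 1 and 4 were positive and the other pairs negative. Its 95% interval contains changes up to 1.32-fold. Gpx1 had 0.28, 0.66, 0.20 and -0.22, a mean of 0.23 ± 0.36, which becomes 0.01 with the ratios taken as not turned. Gpx1 was positive in all pairs but replicate 4. Without that replicate its mean was 0.38, and the limma coefficient, fitted with the dye term on the 3 arrays left, was 0.45 (unadjusted p = 0.0115, adjusted p = 0.9998). In that fit 2.46% of all genes had an unadjusted p under 0.05. With all 4 arrays the unadjusted limma p of Gpx1 was 0.217. Gpx4 had 0.62, -0.35, -0.35 and 0.06, a mean of -0.01 ± 0.46, in which a high replicate 1 stood against 2 negative pairs. Catalase, Gpx1 and Gpx4 each rest on a single, never dim spot.

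Of the peroxiredoxins, Prdx3 had log2 ratios of -0.22, -0.25, 0.19 and 0.32 on replicates 1 to 4, averaging 0.01 ± 0.29. It had the sign of Sod2 on every array, and how many other pairs of genes do so was not counted. Prdx1 had gene means of 0.18, -0.59, -0.41 and 0.22, a mean of -0.15 ± 0.41. Its value on replicate 3 averages spots that disagree: the spot for the transcript NM_011034 had 0.33, -0.65, 0.42 and 0.06, and the spot for the cDNA AK169992 had 0.04, -0.52, -1.25 and 0.37. Both were never dim, and their means were 0.04 and -0.34. The sign of the Prdx1 mean therefore depends on the spot, and neither spot passed in limma (adjusted p = 0.9997 over all spots for each).

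The mitochondrial and the other enzymes did not differ in 1 direction. The mean of Sod2 and Prdx3 was -0.24, -0.23, 0.27 and 0.24 on replicates 1 to 4, and that of the 6 other enzymes 0.31, -0.14, -0.11 and 0.09. The difference, mitochondrial minus other, was -0.54, -0.09, 0.38 and 0.15, with a mean of -0.03 ± 0.40 (SD, n = 4), smaller than its spread between pairs. On replicate 1 the groups did not overlap, with Sod2 and Prdx3 both negative and all 6 others positive. Of all genes, 50.2% were positive on that array. How often groups of these sizes part on an array was not tested. On replicate 3 both mitochondrial genes were positive and 2 of the 6 others were, Sod3 and Gpx1. On replicates 2, 3 and 4 the values of the 2 groups overlapped. With Gpx1 and Gpx4 counted as mitochondrial, the mean difference was 0.07 ± 0.20.

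**Figure D3:**
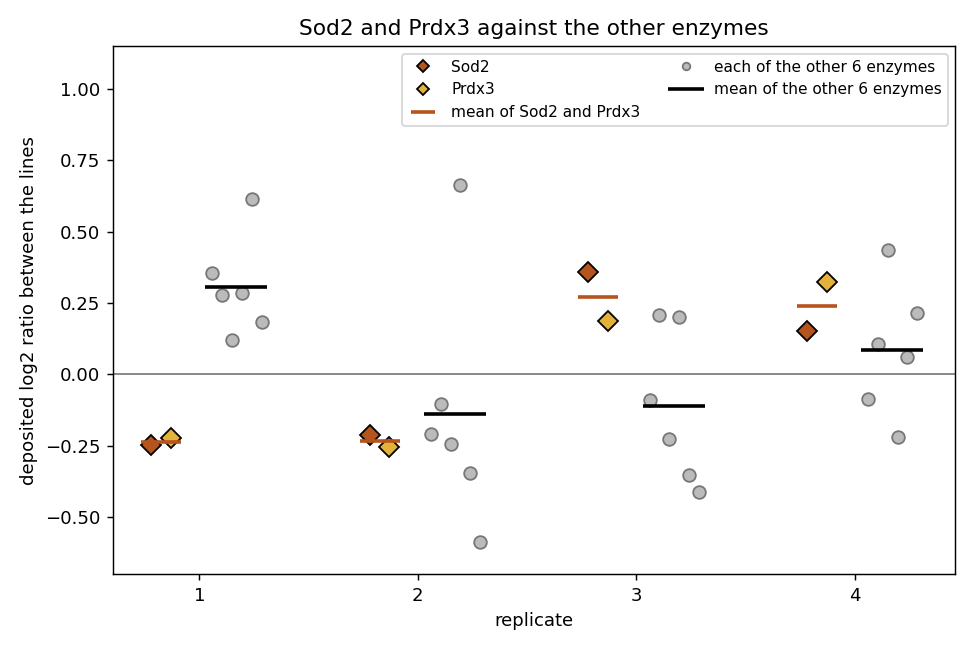
Deposited log2 ratio between the lines (vertical axis) of Sod2 and Prdx3 (diamonds) and the other 6 enzymes (grey circles) on replicates 1 to 4 (horizontal axis), with short lines for the mean of either group. Sod2 and Prdx3 have the same sign on each array, lie below all others on replicate 1, and stand at 0.36 and 0.19 on replicate 3.

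Likeness between genes was measured as the root mean square difference of their log2 ratios over the 4 arrays, as a description. Among the 8 enzymes and 34 partner genes, the nearest to Sod2 was Prdx3 and the nearest to Prdx3 was Sod2, at 0.12. Of the 19087 other genes of the arrays, 180 were nearer to Sod2 than Prdx3 was. Sod1 was nearest to Idh2 (0.12), Sod3 to Gpx5 (0.11) and Cat to Gpx2 (0.11). In that order, 427, 474 and 36 genes of the arrays were nearer still. The single spot of Gpx5 was dim on all 4 arrays and that of Gpx2 on 3. Gpx1 was nearest to Gpx8 (0.22), Gpx4 to Sod1 (0.21) and Prdx1 to Cat (0.23). With 4 arrays such distances say little, and genes whose ratios stay near 0 lie close to many others.

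None of the 8 enzymes alternated in sign with the dye orientation on all 4 arrays, as 21.3% of all genes did. In limma the dye coefficient passed an adjusted p of 0.05 for 0 of 8 enzymes and 0% of all genes, and an unadjusted p of 0.05 for 0 of 8 enzymes, against 8.98% of all genes. Of 34 partner genes of these enzymes, 11 alternated, and Prdx2, Txn2 and Txnrd1 had an unadjusted limma p under 0.05 for the dye. Prdx2 had 0.37, -0.36, 0.21 and -0.38 on replicates 1 to 4, averaging -0.04 ± 0.39.

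The partners are 35 further genes of peroxide removal, of which 34 had spots (all but G6pdx). They are other peroxiredoxins and glutathione peroxidases, genes of the thioredoxin and glutathione systems, and enzymes that supply NADPH. Both systems restore the peroxidases, though not every gene counted in them, such as Txnip, does so. The copper chaperone of SOD1 and redox helpers such as sestrins are also among the partners. None passed the adjusted threshold in limma on either side (0 of 34, against 0% of all genes) and 0 of 34 had an unadjusted p under 0.05. Their means were positive for 25 genes and negative for 9, with a median of 0.06, while 49.5% of all genes had a positive mean. On replicate 1 all 7 genes of the thioredoxin system were positive, with a group mean of 0.40, and on replicate 2 none were, with a group mean of -0.19. On replicate 3, 6 of 7 were positive (group mean 0.16) and on replicate 4, 3 of 7 (group mean 0.08). Of all genes, between 48.7% and 50.9% were positive on an array. The 9 genes of the glutathione system had group means of 0.10, -0.01, 0.06 and 0.00.

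The partners of smallest unadjusted p on the positive side were Srxn1, which repairs overoxidized peroxiredoxins, at 0.25 ± 0.24, the thioredoxin reductase Txnrd3 at 0.26 ± 0.26 and the peroxiredoxin of the endoplasmic reticulum Prdx4 at 0.16 ± 0.17. Their unadjusted limma p was 0.0545, 0.0686 and 0.0716 in that order, with an adjusted p of 0.9997 for each. On the negative side they were the glutaredoxin Glrx2 at -0.08 ± 0.10, Gclc, the catalytic subunit of the first step of glutathione synthesis, at -0.12 ± 0.34, and the sestrin Sesn2 at -0.08 ± 0.33, with an unadjusted limma p between 0.279 and 0.492. Of the 3 Glrx2 spots, only 1 was never dim, negative on every array with a mean of -0.21. The other Glrx2 spots, dim on 3 and 4 arrays, had means of -0.11 and 0.07. Srxn1 had 0.56, -0.01, 0.19 and 0.27 on replicates 1 to 4, and its 3 spots had means between 0.21 and 0.28. The mitochondrial thioredoxin Txn2 had 0.16, -0.28, 0.42 and -0.14, and the mitochondrial reductase Txnrd2 had 0.16, -0.30, 0.09 and -0.02. Their signs alternated with the dye orientation, while those of Sod2 and Prdx3 did not. Spot means of Txnrd2 ran from -0.24 to 0.20.

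Among the partners, Ccs and Nnt had 1 sign on every array, both positive (2 of 34, against the 9.02% of all genes given above). Ccs, which loads copper into SOD1, had 0.14, 0.05, 0.17 and 0.07, a mean of 0.11 ± 0.05, but its 2 spots had opposite signs on replicates 2, 3 and 4. Nnt, a transhydrogenase of the inner mitochondrial membrane that makes NADPH for glutathione and thioredoxin, had 0.02, 0.08, 0.13 and 0.33, a mean of 0.14 ± 0.13 over 4 spots. Single Nnt spots did not keep 1 sign: 2 were negative on replicate 1 and another, dim on all 4 arrays, on replicate 2. The 95% interval of the Nnt mean ran from -0.06 to 0.33. The cystine carrier Slc7a11, picked after its values were seen, had the widest spread of the partners, an SD of 0.72. It had -0.89, -0.08, 0.85 and -0.22 on replicates 1 to 4. Its spots ranged between -2.05 and 0.12 on replicate 1 and between 0.23 and 1.38 on replicate 3, so that a mean over them hides their size. The spot with 0.12 and 0.23 was dim on 3 arrays. Another, dim on 1 array, had -0.14 and 0.79 on those replicates. The 2 never dim spots had -2.05 and -1.50 on replicate 1, and 1.38 and 0.99 on replicate 3.

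**Figure D4:**
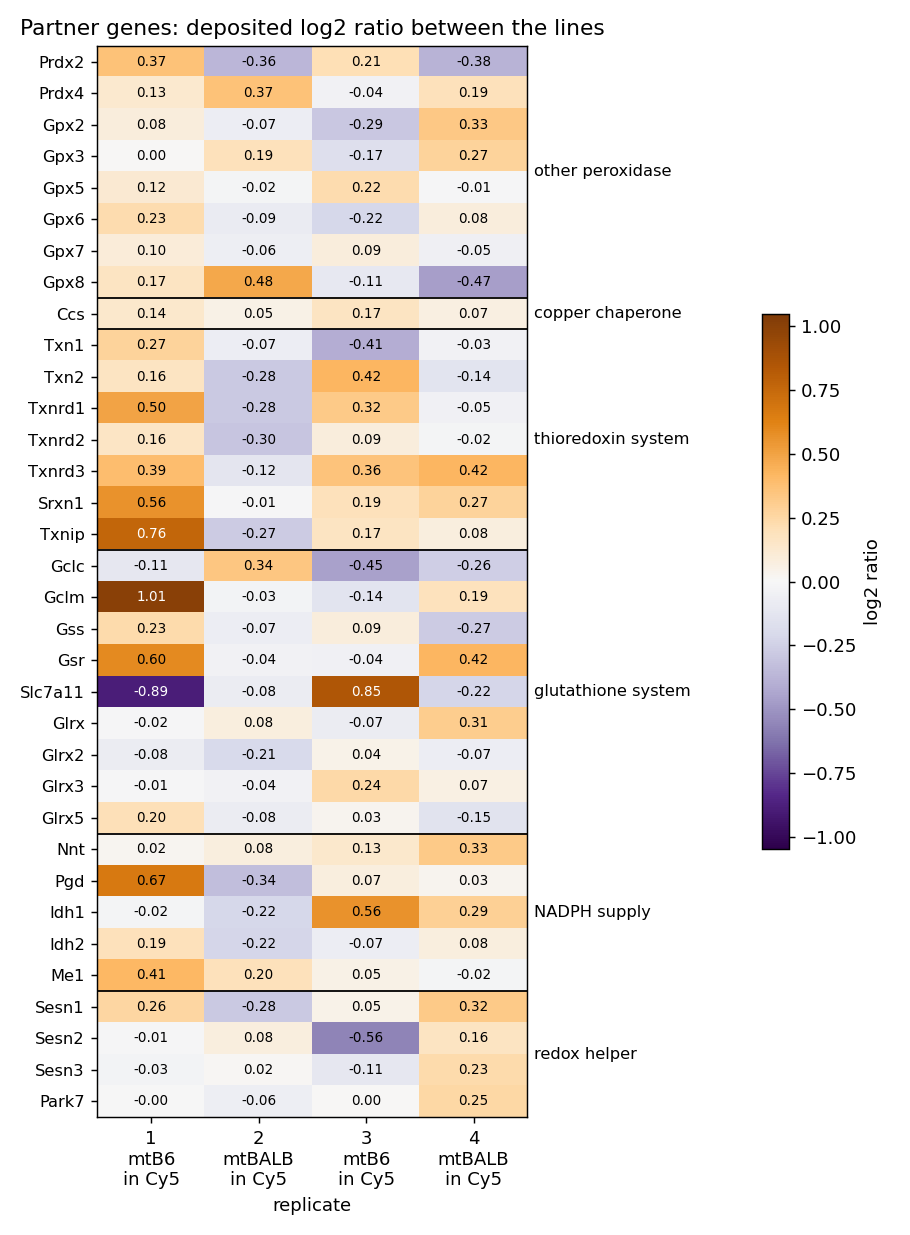
Deposited log2 ratio between the lines of the 34 partner genes (rows, grouped by role) on replicates 1 to 4 (columns), as colour and printed value. The thioredoxin system is positive throughout on replicate 1 and negative throughout on replicate 2, and Slc7a11 has -0.89 on replicate 1 and 0.85 on replicate 3.

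The arrays themselves also differed between pairs. Marker genes of fibroblasts (11 of 11 with spots) averaged 0.34, -0.24, 0.03 and 0.14 on replicates 1 to 4, of which 6 were positive on replicate 1. Col1a1 alone had 2.51 there, and without it, a choice made after seeing its values, the other 10 averaged 0.12, -0.26, -0.05 and 0.04. Of all markers, Pdgfrb and the leukocyte markers Lyz2 and Tyrobp had 1 sign on all 4 arrays, negative for each. Of all genes, 9.02% had 1 sign on every array. Markers of leukocytes (5 of 7) averaged between -0.16 and -0.06, and those of epithelium (4 of 4) between -0.15 and -0.00. None of the epithelial markers had a never dim spot. Nor did the leukocyte markers Ptprc, Itgam and Mpo or the fibroblast markers Vim, Thy1, Lum and Dcn. Over all spots Pearson's r was 0.27 between replicates 2 and 4, -0.00 between replicates 1 and 3, and -0.24 to -0.17 between arrays of opposite dye orientation. The part of these in the enzymes' spread was not tested.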

How the data were processed

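RNA of 4 pairs of cultures was measured on 4 arrays. The authors deposited 1 log ratio per spot and array, taken here as log2, since limma, which the submitters' processing notes name without a version, works in base 2, with background correction, normalization, filters and genome build not given in the sources used here. Depth has no meaning for arrays, and their number limits the precision. The deposited values have 9 decimals (median) on replicates 1 and 3 and 6 on replicates 2 and 4, so the arrays of either dye orientation were written differently.

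The labels' protocols add a different spike mix to either dye. Among unannotated spots, 171 had a ratio of 0.6 or more in size on every array. Their sign followed the dye orientation for 163 and was constant for 0, as spiked transcripts would do after all ratios were turned to 1 direction, so the ratios were used as turned. Symbols were updated through gene IDs in RefSeq's GRCm38.p6 table (18966 of 19088 matched). No name was given to the 56 spots with several genes and the 11511 with none. Spots of a gene were averaged. limma 3.58.1 under R 4.3.3 (lmFit, eBayes) fitted the mean ratio and a dye term over all genes, with Benjamini-Hochberg adjustment and a threshold of 0.05, and was tested on simulated data. That test required few false calls and that the largest added changes be found. These were far larger than the enzymes' ratios, so it does not show whether changes of the enzymes' size would be called. All 10 enzymes are named. Partners are named by smallest p (3 on either side), with Prdx2, Prdx4, Ccs, Txn2, Txnrd2, Srxn1 and Nnt, and for each enzyme the partner or enzyme nearest to it. The enzymes, lists and tests were chosen with earlier results of these data known. Alternatives changed the dye term, the summary of spots, dim spots, scaling, centring, the variance model, the direction of the ratios, the mitochondrial class and the replicates used.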

Additional observations from a re-analysis of the deposited data

Results flagged for a closer look

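Of 20 values over the 4 arrays (the 8 enzymes, 11 named partners and the mitochondrial minus other difference), 1 had an array far from the rest by Dixon's criterion for 4 samples. The thioredoxin reductase Txnrd3 had -0.12 on replicate 2, against 0.39, 0.36 and 0.42 on replicates 1, 3 and 4. It rests on a single spot. Chance marks about 1 in 20 groups, and 1 of 20 was marked here.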

How the results depend on the processing

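No alternative brought any of the 8 enzymes or 34 partners past the adjusted threshold in limma: not another summary of spots, never dim spots alone, scaling, centring, a fit with no dye term or a robust variance, ratios taken as not turned, or the loss of any replicate. The lowest adjusted p of an enzyme over the fits of turned ratios was 0.700, without replicate 3. Leaving out 1 replicate gave between 0 and 1 enzymes at an unadjusted limma p under 0.05 (Gpx1, without replicate 4, where 2.46% of all genes had one) and between 0 and 1 with the same sign on the remaining arrays: Sod1 without replicate 1, Sod3 without replicate 2 and Gpx1 without replicate 4, against 21.9%, 20.9% and 18.4% of all genes in that order. The means moved by less than their SD under each alternative. For the loss of 1 replicate this holds for any 4 values, so it says nothing about steadiness there. The signs of the means are loose, since 4 of 8 changed side without replicate 3 or without replicate 4, and 5 of 8 with ratios taken as not turned. The mitochondrial minus other difference ran from -0.16 without replicate 3 to 0.15 without replicate 1, and was -0.05 and -0.06 with Sod1 or Prdx1 taken from its NM_ spot alone, settings chosen after seeing the data. Sod3 has no value with never dim spots alone. Each array is itself a pair of cultures, so the pairing is part of every ratio. With scanner intensities not used here, signal over background is unknown. By the rule of shared ratios alone, 53.7% to 56.0% of the spots of an array were called dim, and their signal was not checked.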
